A study of Homo sapiens with 4 samples.

Results

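The genes described here are 4 ligands of the vascular endothelial growth factor (VEGF) family (VEGFA, VEGFB, VEGFC and PGF), 4 of their receptors (FLT1, KDR, NRP1 and NRP2) and the endothelial-type adhesion genes PECAM1 and ESAM. They were the rows of the deposited table whose symbol equals one of these names, and all 10 of 10 were found among 17791 genes. RNA sequencing was carried out on engineered prostate cancer tissues (EPCaTs), in which PC-3 cells and BJ-5ta fibroblasts were encapsulated at 5 to 1 in a gel of poly(ethylene glycol) and fibrinogen (PF). PC-3 was derived from a bone metastasis of prostate cancer, and BJ-5ta is a line of telomerase-immortalised foreskin fibroblasts. The groups were the PF EPCaT, the PF+2%PEGDA EPCaT and the PF+3%PEGDA EPCaT, all on day 15, the last 2 with added poly(ethylene glycol) diacrylate (PEGDA), and a 2D coculture of the same lines. EPCaT values are given in this order throughout. The labels name no further treatment, and they give neither a day nor a cell ratio for the 2D coculture. Each EPCaT library pooled RNA of more than 2 tissues, and no endothelial cells were seeded in any group.

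VEGF ligands are secreted dimers that drive the growth of blood and lymph vessels. They bind receptor tyrosine kinases that are best known on endothelial cells, with neuropilins as co-receptors, and tumour cells and fibroblasts are common sources of the ligands. PECAM1 and ESAM encode immunoglobulin-family adhesion proteins of endothelial cell junctions, which platelets also carry.

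There was 1 library per group, so no p-value between groups is given and the spread between cultures is unknown. Total counts were 13760301 to 15687894 per library. Levels are counts scaled to 1000000 per library (CPM), so that 1 count was worth 0.0599 to 0.0731 CPM. Intervals are exact 95% intervals and cover counting error only. A gene is called higher or lower where it was at least 2-fold apart and the interval excluded equality. CTNNA1, the alpha-catenin gene that is deleted in PC-3, measured 5.39, 6.18 and 8.26 CPM across the EPCaTs, against 33.3 CPM in 2D. Of 19 fibroblast markers 13 were called lower in all 3 EPCaTs and 0 higher, and their summed level was 1676, 1695 and 1303 CPM, against 5518 CPM in 2D. Of 15 epithelial markers 4 were higher and 0 lower, with sums of 6268, 7081 and 6669 CPM, against 4509 CPM in 2D. Over all genes tested, 7.74% were called higher and 6.2% lower in all 3 EPCaTs. In bulk RNA, fewer cells of a type and less RNA per cell cannot be told apart, so the part of cell makeup in each result below was not tested.

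The 250 bases before the RefSeq start (GRCh38.p14) are printed for the members called the same way in all 3 EPCaTs against 2D that have an entry in the promoter table, so that the higher and the lower genes can be set side by side. Capitals mark the GC box GGGCGG, the ETS core GGAAG and the TATA box TATAAA, each on either strand.
KDR, higher, chr4:55125596-55125845, minus strand: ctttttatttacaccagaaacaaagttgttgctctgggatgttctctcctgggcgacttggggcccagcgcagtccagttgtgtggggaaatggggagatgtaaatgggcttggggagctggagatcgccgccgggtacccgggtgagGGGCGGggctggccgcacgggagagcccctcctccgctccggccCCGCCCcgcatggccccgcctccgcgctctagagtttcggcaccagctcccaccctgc
FLT1, lower, chr13:28495129-28495378, minus strand: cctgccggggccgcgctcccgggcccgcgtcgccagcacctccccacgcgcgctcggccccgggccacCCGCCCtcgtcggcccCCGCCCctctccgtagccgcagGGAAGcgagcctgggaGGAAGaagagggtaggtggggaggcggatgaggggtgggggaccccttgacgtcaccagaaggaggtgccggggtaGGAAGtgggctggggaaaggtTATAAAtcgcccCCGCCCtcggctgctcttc
NRP2, lower, chr2:205682251-205682500, plus strand: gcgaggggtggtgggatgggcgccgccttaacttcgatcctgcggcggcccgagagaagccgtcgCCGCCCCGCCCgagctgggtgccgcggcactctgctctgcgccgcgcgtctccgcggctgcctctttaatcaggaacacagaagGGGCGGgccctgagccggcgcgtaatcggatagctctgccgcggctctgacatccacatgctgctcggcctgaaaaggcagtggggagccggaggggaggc
VEGFC, lower, chr4:176792923-176793172, minus strand: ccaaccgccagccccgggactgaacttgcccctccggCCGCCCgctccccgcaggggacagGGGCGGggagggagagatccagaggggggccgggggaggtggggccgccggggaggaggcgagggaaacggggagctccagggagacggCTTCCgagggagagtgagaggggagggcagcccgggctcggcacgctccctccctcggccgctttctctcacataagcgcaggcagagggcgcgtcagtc
The KDR window holds 2 GC boxes, which begin at -102 and -58 from the start, and no ETS core or TATA box. The FLT1 window holds a TATA box at -31, 3 ETS cores at -144, -128 and -52, and 3 GC boxes. NRP2 has 3 GC boxes alone, of which the first 2 overlap by 1 base, and VEGFC has 2 GC boxes and 1 ETS core. Of the members, 6 had an entry, with 7 windows, since PGF has 2. All 7 windows hold a GC box, against 42.3% of 27305 promoter windows of this length in the table, 1 per gene. The 2 PGF windows overlap, and each of the 6 members holds a GC box. GC content ran from 65.2% in KDR to 82.8% in VEGFB, percentiles 68.5 and 98.8 of those windows. ETS cores stood in 3 of the 7 windows (65.1% of all), the TATA box in 1 (11.1%), and the hypoxia response core ACGTG in 0 (18.7%). The AP-1 site TGACTCA was in 0 as well (4.16%). A match is a description of these letters and not a binding site. RefSeq and GENCODE starts differ for some of these genes. The NRP2 window lies inside the GENCODE gene coordinates given below, and the VEGFC window lies upstream of them with a gap. Positions in the windows are thus counted from the RefSeq start alone. VEGFA, NRP1, PECAM1 and ESAM have no entry.

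Against the 2D coculture the receptors and the adhesion genes split. KDR, PECAM1 and ESAM were called higher in all 3 EPCaTs, while FLT1, NRP2 and VEGFC were called lower in all 3. VEGFA, PGF and NRP1 passed the size rule in none of the 3, and VEGFB in the PF EPCaT alone. In the PF EPCaT 3 of the 10 members were higher, where 16.2% of 14856 tested genes were, and 4 were lower, against 12.3%. In the PF+2%PEGDA EPCaT 3 were higher (background 12.3%) and 3 lower (9.65%). In the PF+3%PEGDA EPCaT 3 were higher (11.8%) and 3 lower (10.7%). Over all 3 EPCaTs the counts were 3 higher, where 7.74% of genes were called, and 3 lower, where 6.2% were. The 3 comparisons share the 2D library. The members' median log2 ratios were -0.52, -0.55 and -0.16 for the 3 EPCaTs, against 0.0066, -0.0032 and -0.012 over all tested genes.

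**Figure D1:**
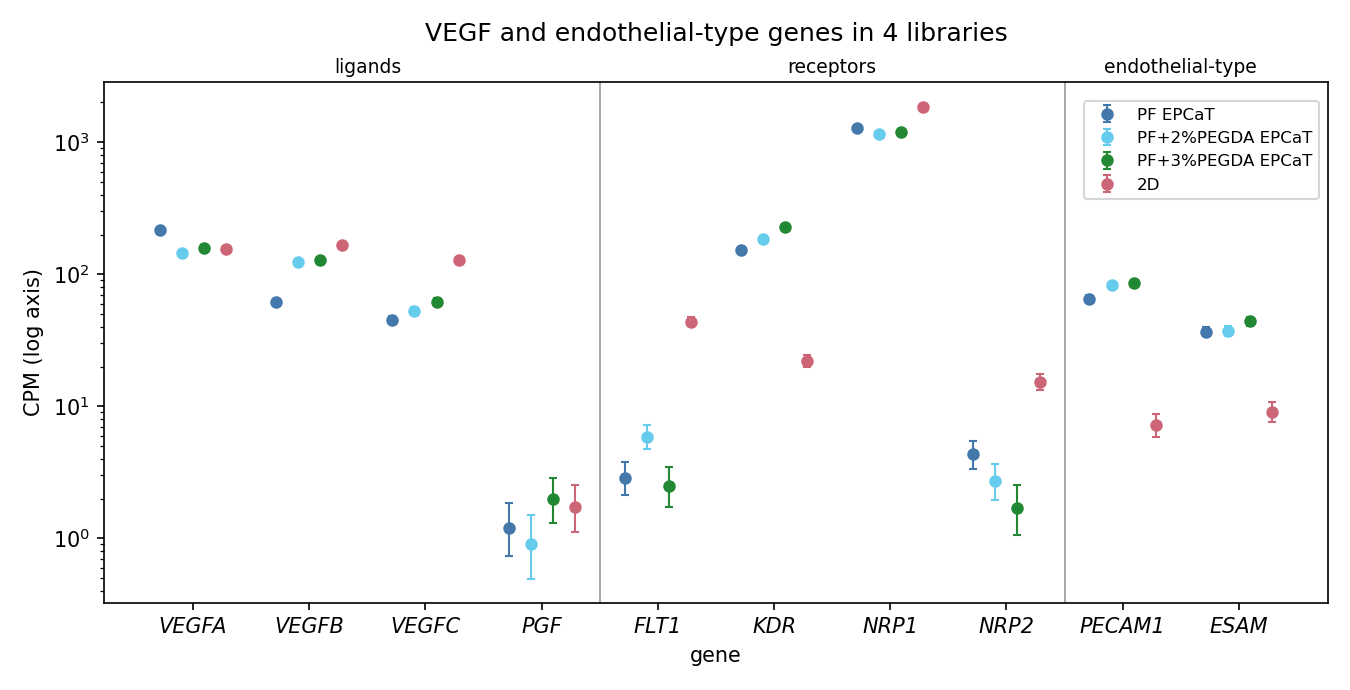
Level of each gene in CPM (log axis) in the 3 EPCaTs and the 2D coculture, 1 library each; bars are exact 95% counting intervals. KDR, PECAM1 and ESAM lie above 2D in all 3 EPCaTs, and FLT1, NRP2 and VEGFC lie below it.

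VEGFA encodes the main angiogenic ligand, which binds FLT1 and KDR (chr6:43770184-43786487, GRCh38, plus strand). VEGFA measured 215 CPM in the PF EPCaT, 144 CPM with 2% PEGDA and 159 CPM with 3% PEGDA, against 154 CPM in 2D. The PF EPCaT was the highest, 1.40 times 2D (interval 1.32 to 1.47), and the other 3 libraries lay between 144 and 159 CPM. The order of the PF+3%PEGDA EPCaT and 2D was within counting error, and the small difference between the PF+2%PEGDA EPCaT and 2D (log2 ratio -0.09) turned to 0.02 with total counts as the only scaling.

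VEGFB encodes a ligand of FLT1 and NRP1 that is known for effects on lipid handling and coronary vessels (chr11:64234538-64238793, plus strand). It measured 61.4, 124 and 128 CPM across the EPCaTs, against 166 CPM in 2D. The PF EPCaT was called lower than 2D by 2.70-fold (2.51 to 2.91). Both PEGDA tissues were 1.30- to 1.34-fold below 2D, under the size rule, and did not differ from each other beyond counting error. VEGFA and VEGFB thus stood in opposite places in the PF EPCaT, which had the highest VEGFA level and the lowest VEGFB level of the 4 libraries.

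VEGFC, the ligand of lymphatic vessel growth that signals through FLT4 and KDR (chr4:176683538-176792727, minus strand), measured 45.1, 53.1 and 61.9 CPM across the EPCaTs, against 128 CPM in 2D. It was called lower by 2.83-fold (2.60 to 3.09) in PF, 2.40-fold (2.21 to 2.61) with 2% PEGDA and 2.06-fold (1.90 to 2.24) with 3% PEGDA. All 3 EPCaTs lay below 2D, and the 3 levels were apart from one another beyond counting error. The call with 3% PEGDA was lost when total counts were the only scaling (log2 ratio -0.95). PGF, placenta growth factor and a ligand of FLT1 (chr14:74941834-74955784, minus strand), had 20, 14 and 27 counts (1.20, 0.901 and 1.97 CPM) across the EPCaTs, against 25 counts (1.71 CPM) in 2D. No EPCaT differed from 2D in PGF beyond counting error, and at this depth the intervals reach a 3.95-fold lower level (2% PEGDA) and a 2.07-fold higher one (3% PEGDA).

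KDR encodes VEGF receptor 2, the main signalling receptor of VEGFA on endothelium (chr4:55078259-55125595, minus strand). KDR measured 154, 184 and 226 CPM across the EPCaTs, against 22.1 CPM in 2D. All 3 EPCaTs stood far above 2D, by 6.94-fold (6.18 to 7.82), 8.32-fold (7.43 to 9.38) and 10.2-fold (9.12 to 11.5). FLT1 encodes VEGF receptor 1, which binds VEGFA more tightly but signals weakly, and whose soluble form acts as a decoy (chr13:28300344-28495145, minus strand). FLT1 measured 2.88, 5.86 and 2.49 CPM in the EPCaTs, or 48, 91 and 34 counts, against 43.7 CPM and 639 counts in 2D. It was called lower by 15.1-fold (11.3 to 20.8), 7.43-fold (5.99 to 9.41) and 17.4-fold (12.5 to 25.6). Counts per gene do not separate the soluble from the membrane form.

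Compared per length within a library, KDR stood far above FLT1 in each EPCaT and did not in 2D. Per kilobase of merged exons, KDR exceeded FLT1 by 102-fold (76.9 to 139) in the PF EPCaT, 60.3-fold (48.9 to 75.1) in PF+2%PEGDA and 174-fold (124 to 252) in PF+3%PEGDA. In 2D the ratio of KDR to FLT1 was 0.968 (0.844 to 1.11), so the levels could not be told apart there. For KDR and FLT1 the principal transcript is also the longest one, so that length adds no separate check. The excess in the EPCaTs held with the other lengths tried, at 31.1-fold to 107-fold. In 2D those lengths put FLT1 above KDR, at a KDR to FLT1 ratio of 0.499 with the coding sequence and 0.592 with the longest transcript.

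**Figure D2:**
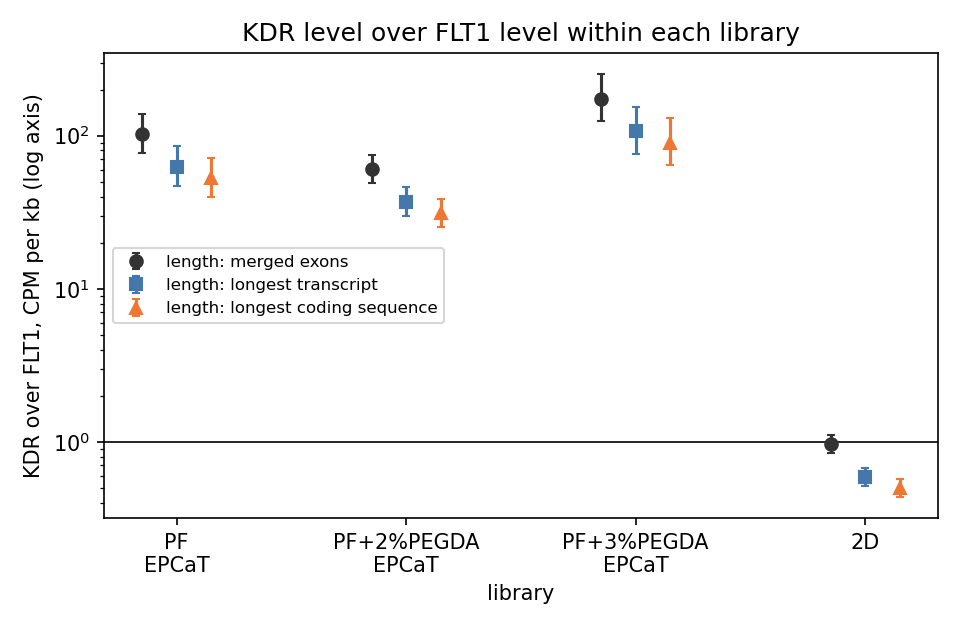
Ratio of the KDR level to the FLT1 level in CPM per kilobase (log axis) within each library, with the gene length taken in 3 ways; bars are exact 95% counting intervals and the line marks equal levels. The 3 EPCaTs lie between 31.1 and 174, and 2D lies between 0.499 and 0.968.

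NRP1 encodes neuropilin-1, a co-receptor that binds VEGFA and class 3 semaphorins (chr10:33177492-33336262, minus strand). NRP1 measured 1281, 1163 and 1204 CPM across the EPCaTs, against 1864 CPM in 2D. The EPCaTs were 1.45-, 1.60- and 1.55-fold below 2D, each with an interval that excluded equality and each under the size rule. An antisense gene overlaps 4.87% of its exonic bases (1.30% for VEGFA and 1.06% for NRP2), and reads of the 2 strands cannot be told apart, since the library kit does not mark strand. NRP2 encodes neuropilin-2, the co-receptor of VEGFC (chr2:205681990-205798133, plus strand). NRP2 measured 4.32, 2.70 and 1.68 CPM (72, 42 and 23 counts) across the EPCaTs, against 15.3 CPM (223 counts) in 2D. All 3 EPCaTs were called lower, by 3.52-fold (2.70 to 4.68), 5.59-fold (4.05 to 8.06) and 8.91-fold (5.90 to 14.6). VEGFC and NRP2, a ligand and its co-receptor, were thus both lower in every EPCaT, as was the summed level of the fibroblast markers.

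Per kilobase, NRP1 took 82.3%, 77.8% and 75.0% of the summed level of the 4 receptors in the EPCaTs and 95.3% in 2D. KDR took 17.3%, 21.7% and 24.8% in the EPCaTs and 1.99% in 2D, while FLT1 took 0.169%, 0.359% and 0.142%, against 2.05% in 2D. NRP1 led with each length tried, of which the longest and the principal transcript are the same for the 4 receptors. The order of the ligands was not fixed by these data. VEGFA took 20.3%, 8.89% and 9.22% of the summed ligand level in the EPCaTs and 6.24% in 2D with merged exons, whose length of 14431 bases for VEGFA includes retained introns. With the annotated principal transcript of 1199 bases, a length chosen after seeing the data, the shares were 72.8%, 50.9% and 51.8% in the EPCaTs and 41.2% in 2D. That length is shorter than the longest VEGFA coding sequence, 1236 bases, and a shorter length gives a larger share. The VEGFA share was highest in the PF EPCaT and lowest in 2D under all 4 lengths, while the leading ligand changed with the length.

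PECAM1 encodes CD31 (chr17:64319415-64413776, minus strand). PECAM1 measured 65.4, 82.2 and 86.2 CPM across the EPCaTs, against 7.19 CPM in 2D, or 1091, 1278 and 1178 counts against 105. It was called higher by 9.06-fold (7.44 to 11.2), 11.4-fold (9.37 to 14.1) and 11.9-fold (9.81 to 14.8). Every EPCaT was far above 2D, and the EPCaTs with 2% and 3% PEGDA did not differ beyond counting error. ESAM, the endothelial cell-selective adhesion molecule gene (chr11:124752583-124762290, minus strand), measured 36.7, 37.1 and 43.9 CPM across the EPCaTs, against 9.04 CPM in 2D. The ESAM ratios were 4.05 (3.36 to 4.94), 4.10 (3.39 to 5.00) and 4.84 (4.02 to 5.91), all called higher. Of the 50-mers of PECAM1 and ESAM, 0.233% and 0.36% occur in other genes.

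**Figure D3:**
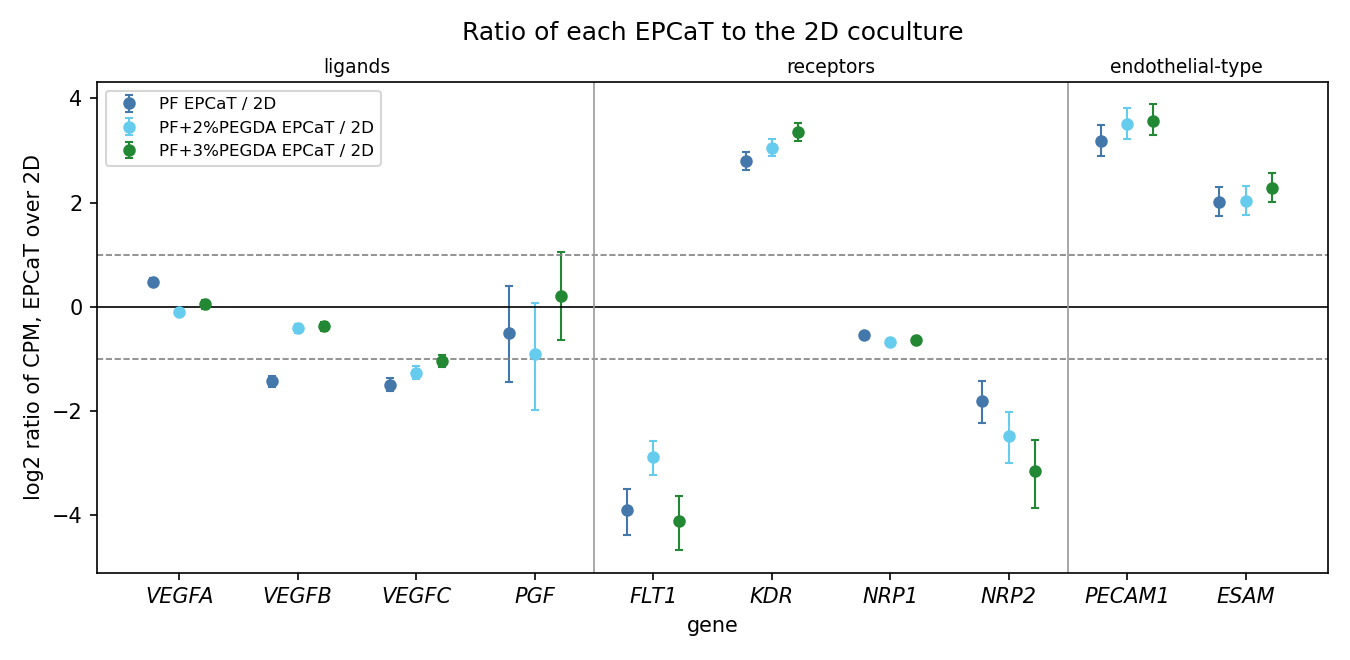
Log2 ratio of CPM of each EPCaT over 2D for the 10 genes; bars are exact 95% counting intervals, the solid line marks equality and the dashed lines mark 2-fold. KDR, PECAM1 and ESAM lie above the upper dashed line in all 3 EPCaTs, with FLT1 at -3.91, -2.89 and -4.12 at the other end.

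Apart from PECAM1 and ESAM, no endothelial marker of the list was called higher in all 3 EPCaTs. The list leaves out the receptor genes KDR, called higher in all 3, and FLT1, called lower in all 3. Of 33 listed genes, 25 were in the table and 15 reached 1 CPM in some library. Over all 3 EPCaTs 2 of these were called higher, PECAM1 and ESAM themselves (background 7.74%), and 4 lower (6.2%). The list's median, taken over each gene's mean log2 ratio, was -0.24, against -0.0097 over all tested genes. Without PECAM1 and ESAM, the summed level of the list was 101, 82.6 and 88.6 CPM across the EPCaTs, against 122 CPM in 2D. KDR, outside this sum, measured 154, 184 and 226 CPM, against 22.1 CPM in 2D. FLT1, also outside it, measured 2.88, 5.86 and 2.49 CPM, against 43.7 CPM in 2D. ROBO4, an endothelial guidance receptor gene, was 5.06- to 7.35-fold lower. FLI1, an ETS transcription factor gene, was 4.57- to 8.02-fold lower, and ENG, the endoglin gene, 2.18- to 3.12-fold. The fourth was ANGPT2, an angiopoietin gene, at 3, 3 and 0 counts across the EPCaTs, against 15 in 2D. ANGPT2 reached 1 CPM in 2D alone, so it could only be called lower.

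Of the 25 list genes in the table, 10 were under 1 CPM in every library, among them VWF, TEK, CD34, FLT4 and CLDN5. VWF, the von Willebrand factor gene, had 3, 2 and 2 counts across the EPCaTs, against 0 in 2D. TEK, the angiopoietin receptor gene, had 5, 5 and 6 counts, against 1 in 2D, and CD34 had 0, 0 and 0 counts, against 3 in 2D. FLT4, VEGF receptor 3 and the third receptor of the family, had 0, 1 and 0 counts, against 0 in 2D. CLDN5, a tight junction gene of endothelium, had 5, 0 and 2 counts, against 0 in 2D. These 5 markers, chosen after their values were seen, had 0 to 6 counts in every library. Others of the 10 reached more. LMO2 had 3, 4 and 2 counts across the EPCaTs, against 12 in 2D, and ICAM2 had 2, 3 and 11, against 0 in 2D. The 10 genes together had 30, 23 and 30 counts, against 17 in 2D. Other markers of the list were detected in every library. NOS3, the endothelial nitric oxide synthase gene, measured 47.9, 24.2 and 29.2 CPM across the EPCaTs, against 18.1 CPM in 2D. EGFL7, a secreted vascular factor gene, had 273, 312 and 238 counts, against 229 in 2D. The transcription factor gene SOX7 measured 12.3, 8.49 and 8.48 CPM, against 18.7 CPM in 2D. ACVRL1, a receptor gene of the BMP pathway, had 18, 37 and 22 counts, against 6 in 2D. These 4 genes were not called the same way in all 3 EPCaTs. NOS3 was called higher in PF, ACVRL1 higher and SOX7 lower with 2% and 3% PEGDA, and EGFL7 in none. Taking each EPCaT alone, 3 list genes were called higher, against 16.2%, 12.3% and 11.8% of all tested genes. The lower calls were 6, 5 and 6, against 12.3%, 9.65% and 10.7%. CDH5, ERG, SOX17, CLEC14A, ECSCR, TAL1, APLNR and LYVE1 are not analysed here. Among blood and platelet genes, ITGA2B, the platelet integrin gene, had 52, 21 and 30 counts, against 24 in 2D.

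**Figure D4:**
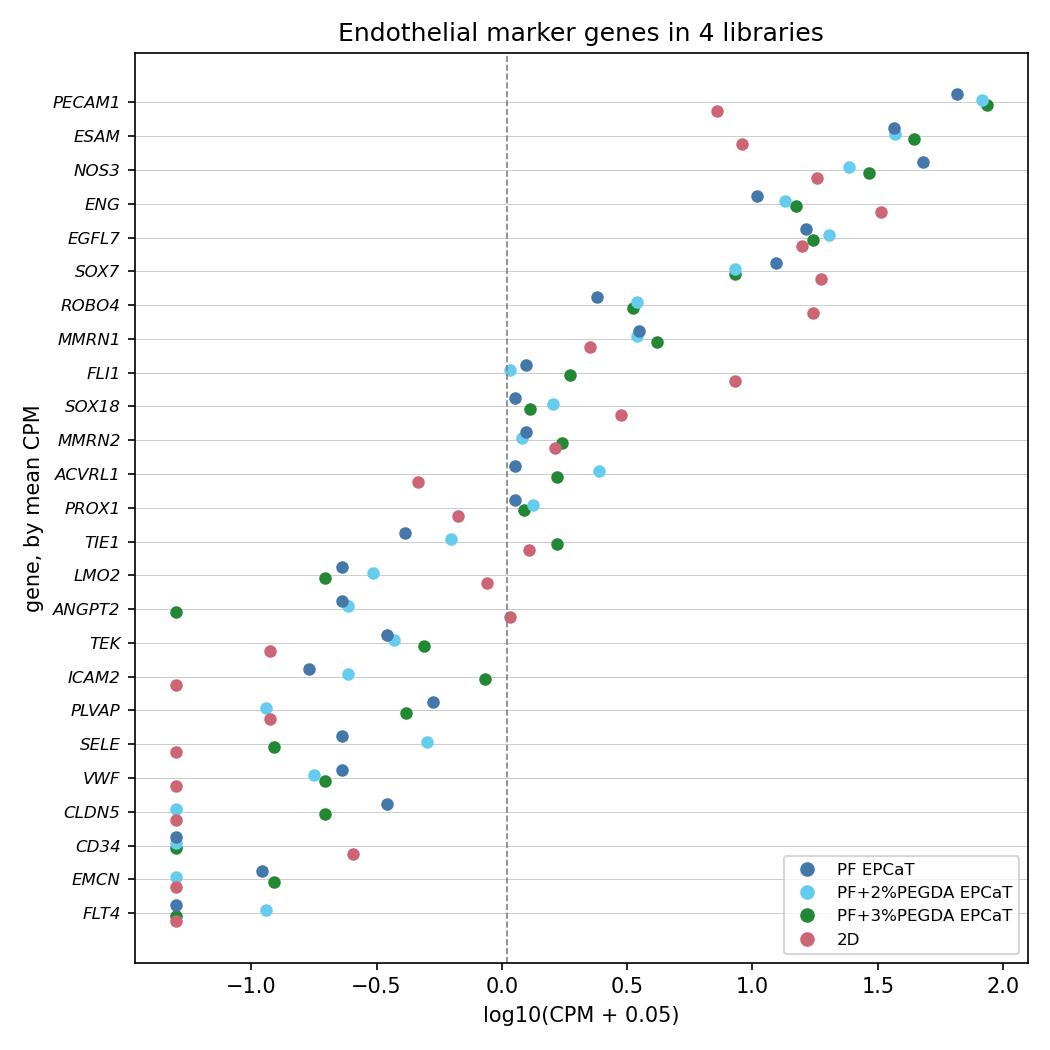
Level of the 25 endothelial marker genes in the table, as log10(CPM + 0.05), in the 3 EPCaTs and in 2D, sorted by mean CPM; the dashed line marks 1 CPM and points at the left edge are at 0 counts. KDR and FLT1 are not in this list. PECAM1 and ESAM are its genes called higher in all 3 EPCaTs, while ROBO4, FLI1 and ENG are lower. VWF, TEK, CD34 and FLT4 lie left of the line.

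Between the EPCaTs, which differ in PEGDA content, fewer calls were made. With 2% PEGDA against PF, 2 members were called higher, where 2.98% of genes were, and 0 lower, against 5.48%. These were VEGFB at 2.02-fold (1.87 to 2.18) and FLT1 at 2.02-fold (1.42 to 2.95). With 3% PEGDA against PF, 1 was higher (background 3.59%) and 1 lower (7.51%). VEGFB was 2.08-fold higher (1.93 to 2.25) and NRP2 2.54-fold lower (1.59 to 4.30). With total counts as the only scaling, both VEGFB calls and this FLT1 call were lost. With 3% against 2% PEGDA, PGF was called higher (2.15-fold, 1.11 to 4.52, from 27 and 14 counts; background 1.84%) and FLT1 lower (2.34-fold, 1.57 to 3.60; background 2.42%). FLT1 was the member that was highest in the middle gel, since its level with 2% PEGDA exceeded both others and those 2 did not differ beyond counting error.

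KDR and VEGFC had their lowest EPCaT level in PF and their highest with 3% PEGDA, in steps under 2-fold that were each beyond counting error. VEGFB, PECAM1 and ESAM stood in the same order, each with a step within counting error. KDR was 1.20 times PF with 2% PEGDA (1.14 to 1.27), and 1.23 times the 2% level with 3% PEGDA (1.17 to 1.29). For VEGFC the same steps were 1.18 (1.07 to 1.30) and 1.17 (1.06 to 1.29). NRP2 stood in the opposite order, at 0.629 (0.418 to 0.929) for the first step and 0.627 (0.357 to 1.06) for the second, whose interval included equality. PECAM1 differed by 1.26 (1.16 to 1.36) and 1.05 (0.967 to 1.13), and ESAM by 1.01 (0.902 to 1.14) and 1.18 (1.05 to 1.33). With 1 library per gel, a trend with PEGDA cannot be told apart from the difference between single preparations.

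The rest of the pathway was read from lists. Of 31 tested genes of VEGF receptor signalling, 1 was higher (background 7.74%) and 5 lower (6.2%) in all 3 EPCaTs (median log2 ratio 0.16). PTPRJ, a receptor phosphatase that acts on KDR, was 3.24- to 4.35-fold higher. The kinase gene FYN was 3.67- to 4.62-fold lower, SPHK1, a sphingosine kinase gene, 2.50- to 2.80-fold, and the focal adhesion gene PXN 2.08- to 2.56-fold. SH2D2A, an adaptor that binds KDR, was also called lower. PXN also had the highest CPM of this list. Of 9 tested genes that process or release the ligands, 1 was higher (background 7.74%) and 2 lower (6.2%), with a median of -0.29. HSPG2, the perlecan gene, whose product binds VEGF through heparan sulfate, was 2.57- to 3.50-fold higher. CCBE1, needed to activate VEGFC, was 3.65- to 4.61-fold lower, and PLAU, the urokinase gene, 2.22- to 2.89-fold. The protease gene CTSD, with the highest CPM of the list, measured 526, 773 and 783 CPM across the EPCaTs, against 1186 CPM in 2D.

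Neuropilins also bind class 3 semaphorins. Of 13 such ligand, plexin and adaptor genes 2 were higher (background 7.74%) and 1 lower (6.2%) in all 3 EPCaTs (median -0.27). SEMA3E was 3.41- to 5.04-fold higher. SEMA3G had 32, 42 and 15 counts across the EPCaTs, against 0 in 2D. The lower interval bounds of its ratios to 2D were 7.17, 10.2 and 3.83. SEMA3G reached 1 CPM in the EPCaTs alone, so it could only be called higher. SEMA3A, the first ligand described for NRP1, was 3.17- to 3.41-fold lower. SEMA3F, a ligand of NRP2 with the highest CPM of the list, measured 291, 283 and 264 CPM across the EPCaTs, against 214.5 CPM in 2D.

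Of 18 other angiogenic ligand genes, 3 were higher (background 7.74%) and 5 lower (6.2%) in all 3 EPCaTs (median -0.11). APLN, the apelin gene, was 10.2- to 10.8-fold higher, and ADM, the adrenomedullin gene, 8.57- to 12.2-fold. ANGPTL4, with the highest CPM of the list, measured 403, 692 and 703 CPM across the EPCaTs, against 5.41 CPM in 2D, and was 74.0- to 129-fold higher. The VEGFA ratios to 2D were 0.937 to 1.40 in the same libraries. The Notch ligand genes DLL4, of endothelial tip cells, and JAG1 were lower by 5.97- to 7.56-fold and 4.97- to 5.68-fold. The other lower genes were CXCL12, FGF2 and ANGPT2. Of these, CXCL12 and ANGPT2 reached 1 CPM in 2D alone, so they could only be called lower.

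Genes whose 3 ratios to 2D lay nearest to a member were found by Euclidean distance over the 3 log2 ratios, which share the 2D library, among genes of at least 5 CPM in the highest library. For KDR they were TNFSF10 (distance 0.163), NCMAP (0.183) and TRIL (0.192). PECAM1 was nearest to PFKFB4 (0.150), NDRG1 (0.161) and SLC22A23 (0.225). ESAM was nearest to GARNL3 (0.0716), PIK3R3 (0.0732) and C9orf152 (0.0906), and VEGFA to KRIT1 (0.0237), NPIPB4 (0.0627) and ANKHD1 (0.0713). These distances rest on 4 libraries and describe likeness of level alone.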

How the data were processed

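RNA was sequenced from 4 libraries, made with a TruSeq RNA v2 kit per the labels. The authors deposited 1 table of expected counts (estimated read counts per gene, unscaled). Per the submitters' processing notes, Partek, FastQC and STAR were used with hg38. Versions, annotation and counting method are not given in the sources used here. Between 18.2% and 19.9% of values per library were not whole at a tolerance of 0.01, and values were rounded.

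The whole table was scaled by trimmed mean of M-values (edgeR 4.0.16, R 4.3.3), and 14856 genes with at least 1 CPM in any library were tested. The count test of edgeR needs replicates, so log2 ratios with a prior count of 0.5 and exact Clopper-Pearson intervals were computed (Python 3.11.15, scipy 1.17.1). They were checked on simulated counts that held counting error alone, so the check says nothing on spread between cultures. Lengths and coordinates came from GENCODE 29 (GRCh38) and promoters from RefSeq. The values were recomputed with size factors of DESeq2 1.42.0, with total counts, and with other filters, priors, fold rules and lengths.

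The members, lists and rules were chosen with earlier results of these data known. Named were all members and, from each list, up to 5 genes called alike in all 3 EPCaTs, ranked by the bound nearest to equality, with the one of highest CPM; 1 gene that this rule names is not reported here. VWF, TEK, CD34, CLDN5, FLT4, LMO2, ICAM2, NOS3, EGFL7, SOX7, ACVRL1, ANGPT2, CXCL12, FGF2, SH2D2A and ITGA2B were named after their values were seen.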

Additional observations from a re-analysis of the deposited data

How the results depend on the processing

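No paired analysis was possible because each group had 1 library, and no library could be left out. Of 480 recomputed member ratios, called or not, 446 both kept their call status and stayed within the main counting interval, and 0 called ratios changed sign. Of the rest, 15 left the interval with the call status unchanged, 16 lost a call and 3 gained one. A filter does not enter a ratio, so the 60 ratios under each filter setting were fixed in advance. The fold rules change the call alone. With total counts, 41 of the 60 ratios stayed, 15 left the interval and 4 lost a call. With DESeq2 size factors, no filter beyond 1 count, or counts as deposited, all counts of called genes stayed within 1.5 times the main ones. With total counts the median log2 ratio to 2D of all tested genes moved by 0.187 in PF, 0.117 with 2% PEGDA and 0.0881 with 3% PEGDA. The share of higher calls among all calls in PF against 2D was then 68.4%, against 56.8%. The members higher than PF became 0 with 2% PEGDA and 0 with 3% PEGDA. A prior count of 2 left 1 higher with 2% PEGDA against PF (FLT1, log2 ratio 0.99, was lost), and the 5 CPM filter left 0 higher with 3% against 2% PEGDA.

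Under the 4-fold rule, 1 member was lower than 2D in PF, 1 was lower in all 3 EPCaTs, and 0 were called in either direction between EPCaTs. Of the other listed genes, 5 were higher and 15 lower in all 3 EPCaTs. At 2-fold these were 13 and 32 of 127 tested, where 7.74% and 6.2% of all tested genes were called. Under the 1.5-fold rule, 22 of the other listed genes were higher in all 3 EPCaTs. That rule also added 3 member calls, all lower. These were NRP2 with 2% PEGDA against PF, and NRP1 against 2D with 2% and 3% PEGDA (1.60- and 1.55-fold).

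The VEGFA share of ligands was, for the 3 EPCaTs in order of PEGDA and then 2D, 56.0%, 32.4%, 33.3% and 25.1% with coding length, and 72.8%, 50.9%, 51.8% and 41.2% with the principal transcript. The NRP1 share of receptors was 89.2%, 86.2%, 84.3% and 96.3% with the longest and with the principal transcript, and 92.0%, 89.8%, 88.4% and 96.9% with coding length. Both moves follow from the lengths themselves. Depth limits PGF, NRP2 and FLT1 most, which had under 100 counts in each EPCaT.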

Other observations

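Markers of cells around vessels gave mixed values. Of 8 tested pericyte and smooth muscle genes, 1 was higher (background 7.74%) and 4 lower (6.2%) in all 3 EPCaTs (median log2 ratio -0.92). RGS5, a regulator of G-protein signalling known from pericytes, was 2.05- to 2.83-fold higher. PDGFRB, which is also in the fibroblast list, was 8.97- to 13.9-fold lower, ACTA2 4.12- to 12.9-fold, MCAM 3.82- to 4.61-fold and ANPEP 2.29- to 2.77-fold. NOTCH3, with the highest CPM of the list, measured 249, 226 and 230.2 CPM across the EPCaTs, against 137 CPM in 2D, under the size rule. Of 4 tested blood and platelet genes, 1 was higher (background 7.74%) and 0 lower (6.2%) in all 3 EPCaTs (median 0.080). The higher one was LYZ, the lysozyme gene, with 36, 24 and 23 counts across the EPCaTs, against 4 in 2D. LYZ reached 1 CPM in the EPCaTs alone, so it could only be called higher. CD68, with the highest CPM of these, measured 53.2, 55.1 and 66.4 CPM, against 119 CPM in 2D.

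Of 19 fibroblast markers, 0 were higher (background 7.74%) and 13 lower (6.2%) in all 3 EPCaTs (median -1.96). The lower genes were led by PDGFRB, the collagen genes COL1A2 at 7.21- to 17.7-fold, COL5A1 at 5.23- to 7.97-fold, COL1A1 at 4.80- to 7.13-fold and COL3A1 at 4.50- to 6.10-fold. COL1A1 had the highest CPM of the list. Of 15 epithelial markers, 4 were higher (background 7.74%) and 0 lower (6.2%), with a median of 0.60. The higher genes were OVOL1 at 3.41- to 4.15-fold, ST14 at 2.43- to 3.18-fold, ELF3 at 2.53- to 2.65-fold and CDH1, the E-cadherin gene, at 2.18- to 2.44-fold. KRT18, an epithelial keratin gene, measured 539, 634 and 602 CPM across the EPCaTs, against 649 CPM in 2D. KRT19, with the highest CPM of the list, measured 1247, 1863 and 1763 CPM, against 756 CPM in 2D.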
